A study of Mus musculus with 8 samples.

Results

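Genes that write, copy or remove DNA methylation were examined for called OCT4 binding sites, 9 in all: Tet1, Tet2, Tet3, Dnmt3a, Dnmt3b, Dnmt3l, Dnmt1, Uhrf1 and Tdg. For each of these 9 genes, every entry of the 6 deposited peak lists whose summit lay inside the gene span of GRCm38 or within 100 kb of either end was taken, with no use of its measured values. This gave 23 of the 20955 summits of the series, which merge into 18 of 15828 stretches of the chromosomes, where a stretch is the union of entries that overlap by at least 1 bp in any library. Of the 9 genes, 8 had a summit in their window, against 75.4% of all protein-coding genes, and Dnmt1 had none.

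DNA methyltransferases place a methyl group on cytosine, mostly where a guanine follows (CpG). Dnmt3a and Dnmt3b methylate new sites with the help of the inactive cofactor Dnmt3l, and Dnmt1, brought by Uhrf1 to newly copied DNA, keeps the pattern through cell division. The TET enzymes oxidize 5-methylcytosine to 5-hydroxymethylcytosine and further forms, and Tdg cuts out the most oxidized ones so that repair can restore cytosine. Embryonic stem cells express the TET enzymes Tet1 and Tet2 and the de novo methyltransferases, and OCT4, encoded by Pou5f1, is a central transcription factor of these cells.

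OCT4 was profiled by CUT&RUN, in which an antibody brings a nuclease to bound sites and the released DNA is sequenced. The cells were untreated male E14 mouse embryonic stem cells (mESC), labelled as strain C57BL/6J and grown without feeders in N2B27+2i medium. The strain comes from the labels alone, since the paper names the line ES-E14TG2a and gives no strain for it. The released DNA went into a conventional preparation, a bisulfite preparation of which only methylated reads were kept, and an hmC-Seal preparation, which pulls down fragments with 5-hydroxymethylcytosine, with 2 OCT4 libraries of each. The paper states that conventional bisulfite sequencing does not separate 5-methylcytosine from 5-hydroxymethylcytosine. A stretch called in both bisulfite and hmC-Seal libraries is thus not shown to carry both marks. All 6 libraries share the cell line, culture and antibody, and IgG libraries served as background in peak calling. The cells came from 1 line, and nothing states that the replicates came from separate cultures, so the spread between them may be technical. Replicate 1 is given before replicate 2 wherever a pair of values stands without numbers. The conventional lists hold 227 and 265 summits, the bisulfite lists 2797 and 2077, and the hmC-Seal lists 3974 and 11615.

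A gene with a site near its start could have it at the promoter, so the promoter windows of the annotation were read for all 9 genes, from 250 bases before to 50 bases after each RefSeq start. None of the 16 windows of the 9 genes held a summit of any library. None held the octamer ATGCAAAT that POU factors bind, or its core ATGCAAA, on either strand, against 1.74% and 4.63% of 32851 RefSeq promoter windows, where every match of the octamer is also one of the core. The windows held between 2 and 57 CpG, and 12 of 16 held more than the median of 7 over all windows. The 4 windows below belong to the genes whose start is the nearest RefSeq start to a called site. They are shown because a called site had no nearer RefSeq start, not because the site was close. The distances were 19.6 kb for Tet2, 68.0 kb for Dnmt3a, 22.2 kb for Uhrf1 and 24.5 kb for Tdg. The windows are in GRCm38.p6 as given by RefSeq, on the strand of the gene, with every CpG in capitals. They lie at chr3:133544341-133544640 for Tet2 (minus strand, 57 CpG), chr12:3806730-3807029 for Dnmt3a (plus strand, 46 CpG), chr17:56304063-56304362 for Uhrf1 (plus strand, 33 CpG) and chr10:82629588-82629887 for Tdg (plus strand, 26 CpG).
Tet2: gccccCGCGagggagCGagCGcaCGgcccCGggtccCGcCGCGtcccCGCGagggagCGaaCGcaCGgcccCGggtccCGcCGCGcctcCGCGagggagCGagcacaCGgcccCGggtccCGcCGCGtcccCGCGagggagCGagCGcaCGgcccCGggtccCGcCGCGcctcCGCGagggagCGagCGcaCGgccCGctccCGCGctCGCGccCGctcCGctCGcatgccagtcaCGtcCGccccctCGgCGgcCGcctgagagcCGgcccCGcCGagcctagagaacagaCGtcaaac
Dnmt3a: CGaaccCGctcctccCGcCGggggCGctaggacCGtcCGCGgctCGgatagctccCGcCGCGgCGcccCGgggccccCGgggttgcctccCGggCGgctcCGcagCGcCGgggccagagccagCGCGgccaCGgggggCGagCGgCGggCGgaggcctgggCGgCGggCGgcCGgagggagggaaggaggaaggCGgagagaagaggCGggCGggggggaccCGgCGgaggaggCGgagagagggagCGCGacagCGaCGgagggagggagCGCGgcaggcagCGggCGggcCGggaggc
Uhrf1: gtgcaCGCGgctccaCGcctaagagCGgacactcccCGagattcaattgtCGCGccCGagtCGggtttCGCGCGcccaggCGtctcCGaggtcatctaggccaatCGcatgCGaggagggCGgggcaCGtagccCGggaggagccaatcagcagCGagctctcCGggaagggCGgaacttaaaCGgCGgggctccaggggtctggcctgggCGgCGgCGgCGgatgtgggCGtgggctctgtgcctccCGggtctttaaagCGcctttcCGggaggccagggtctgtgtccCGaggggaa
Tdg: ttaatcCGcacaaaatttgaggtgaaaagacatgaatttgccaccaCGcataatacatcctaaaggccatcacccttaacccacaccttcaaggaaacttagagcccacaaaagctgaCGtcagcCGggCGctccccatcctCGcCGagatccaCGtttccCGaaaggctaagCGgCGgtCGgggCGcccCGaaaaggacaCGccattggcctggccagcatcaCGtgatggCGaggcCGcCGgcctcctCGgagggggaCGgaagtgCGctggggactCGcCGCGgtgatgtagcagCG

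Sites near the 9 genes were found in the bisulfite and hmC-Seal libraries and in neither conventional library. The conventional pair put 0 and 0 summits into the 9 windows, the bisulfite pair 2 and 4, and the hmC-Seal pair 5 and 12. The mean was 0 ± 0 summits for conventional, 3 ± 1.41 for bisulfite and 8.5 ± 4.95 for hmC-Seal libraries (SD, n = 2 libraries each). By count, both hmC-Seal libraries held more than both bisulfite libraries, and these more than both conventional ones. As a share of each list, the summits were 0.0715% and 0.193% in the bisulfite pair and 0.126% and 0.103% in the hmC-Seal pair. By share these 2 preparations thus overlapped. The differences in mean were 8.5 for hmC-Seal minus conventional, 3 for bisulfite minus conventional and 5.5 for hmC-Seal minus bisulfite, each with p = 0.333 (two-sided exact permutation test over libraries), which is as low as p can go with 2 libraries on each side. The lists themselves differ in length in the same order. When the 227 best entries of each list were taken, the difference of hmC-Seal minus conventional was 0 and that of hmC-Seal minus bisulfite turned to -1. With a pileup of at least 10 they were 2.5 and 0.

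Spread evenly over each chromosome, the summits of the lists would put about as many into these windows. The windows cover 2325.56 kb, 0.0854% of the chromosomes. Even spacing gives 0.178 and 0.205 summits for the conventional pair, so that a count of 0 there is within what lists of this length allow (exact 95% Poisson limit of 3.69 summits each). It gives 2.58 and 1.93 summits for the bisulfite pair, against the 2 and 4 observed. It gives 3.57 and 10.1 for the hmC-Seal pair, against the 5 and 12 observed. The ratio of observed to even spacing was 1.33 for bisulfite (exact 95% Poisson interval of the count, 0.488 to 2.89) and 1.24 for hmC-Seal (0.724 to 1.99). Both intervals include 1, and they cover counting error only. A site called in both replicates enters the count of its preparation once per replicate, so the intervals are too narrow even for that. In windows of 100 kb, the 9 genes as a group were therefore not told apart from evenly spaced summits at this depth. The ratios in other windows are given at the end, without intervals.

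**Figure D1:**
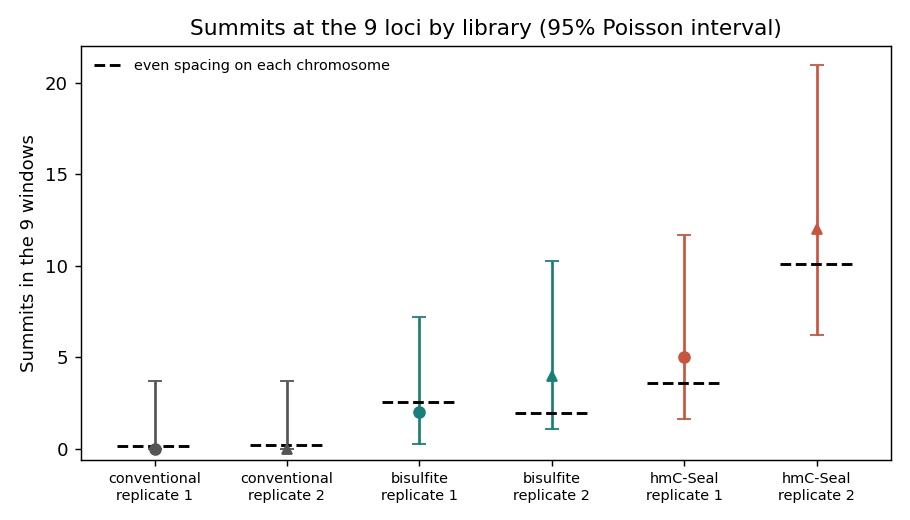
Number of called OCT4 summits in the windows of the 9 genes (vertical axis) in each of the 6 libraries (horizontal axis), with the exact 95% Poisson interval of the count, and the number that even spacing on each chromosome gives (dashed line). The counts run from 0 in both conventional libraries to 12 in hmC-Seal replicate 2, and each dashed line lies inside the interval of its library.

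Counted by gene, the shares were set against the same windows of all 21883 protein-coding RefSeq genes. A summit lay in the window of 0 of the 9 genes in conventional replicate 1, against 2.03% of all genes, and of 0 in conventional replicate 2, against 2.32%. It lay in the window of 2 genes in bisulfite replicate 1, against 21.8%, and of 3 in bisulfite replicate 2, against 17.3%. It lay in the window of 5 genes in hmC-Seal replicate 1, against 30.6%, and of 6 in hmC-Seal replicate 2, against 64.1%. In any library the count was 8 of 9, against 75.4% of all genes, and without hmC-Seal replicate 2 it was 6 of 9, against 42.7%. The windows of the 9 genes have a median length of 252.683 kb and those of all genes 217.17 kb, and their part in these shares was not tested. A stretch called in both replicates lay in the window of 0 of the 9 genes for conventional libraries, against 1.08% of all genes. For bisulfite libraries it was 1 gene, Tet2, against 9.62%, and for hmC-Seal libraries 2 genes, Tet2 and Dnmt3l, against 10.5%.

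Most sites rested on 1 library, as did most of the genome's. Of the 18 stretches, 15 were called in 1 library and 3 in at least 2, near the 14.7% of all stretches that were called in at least 2. Of the 15, hmC-Seal replicate 2 called 10 and replicate 1 called 2, with 1 in bisulfite replicate 1 and 2 in bisulfite replicate 2. Of the 18, 1 stretch lay inside the span of its gene, 9 inside another gene and 8 in no gene of the table. Over the chromosomes with RefSeq promoter windows, 43.2% of stretches lay inside a gene, against these 10 of 18. In the windows of the protein-coding genes there, 16.1% of stretches lay inside the span of the gene whose window it was, against the 1 of 18. The nearest RefSeq start was that of the examined gene for 4 of 18 stretches, at Tet2, Dnmt3a, Uhrf1 and Tdg, near the 25.2% in the windows of protein-coding genes with a RefSeq promoter. The annotation used here holds gene spans without exons, so a site inside a gene cannot be called exonic or intronic.

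**Figure D2:**
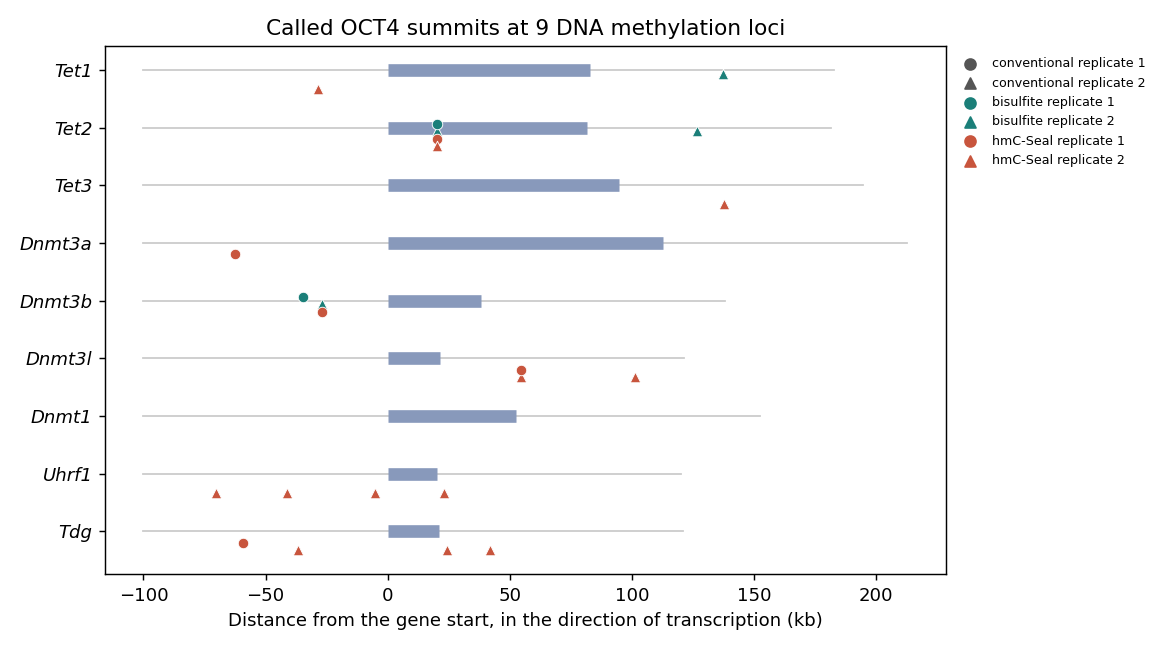
Position of each of the 23 summits relative to the start of its gene, in kb along the direction of transcription (horizontal axis), with 1 row per gene. The thick bar is the gene span, the thin line the window, colour marks the preparation and symbol shape the replicate. The 4 summits inside Tet2 stack at 20.3 to 20.4 kb, Dnmt1 has none, and no conventional summit appears in any row.

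Tet2, which oxidizes 5-methylcytosine, had the site called in the most libraries, and it is the 1 site that lay inside the span of its own gene. Tet2 lies on the minus strand of chromosome 3 from 133463677 to 133545136, and the stretch from 133524641 to 133525114 is 474 bp wide and lies 20.3 to 20.4 kb past the gene start. It was called in both bisulfite and both hmC-Seal libraries and in neither conventional library. The 4 summits fell within 20 bp of each other. In bisulfite replicate 1 its fold enrichment over the IgG background was 7.07, with a −log10 q of 7.06 and rank 1195 of 2797 by −log10 q. In bisulfite replicate 2 the fold was 8.68, with a −log10 q of 10.2 and rank 506 of 2077. These 2 libraries placed it in the best 42.7% and 24.4% of their lists. In hmC-Seal replicate 1 the fold was 14.3, with a −log10 q of 24.8 and rank 368 of 3974. In hmC-Seal replicate 2 the fold was 3.94, with a −log10 q of 1.75 and rank 7987 of 11615. The hmC-Seal replicates thus placed it in the best 9.26% and 68.8% of their lists.

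The pileup behind these calls was unequal. The pileup, the number of fragments over the summit in the units of the peak caller, was recovered from the fold and the p-value and is an estimate. It is scaled to IgG in every list but hmC-Seal replicate 2, where it counts whole fragments. Pileups and a pileup minimum are therefore not in the same unit in that list and the others. At the site inside Tet2 it was 13.1 and 16.4 in the bisulfite pair and 27.5 and 4 in the hmC-Seal pair. By this estimate, the lowest of the values that fitted, the call in hmC-Seal replicate 2 rests on few fragments. With a pileup of at least 10 it drops out. A stretch inside the gene span with this pattern (both bisulfite and both hmC-Seal libraries, no conventional library) was found in 84 of 21883 protein-coding genes, 0.384%. Over the genome 252 of 15828 stretches, 1.59%, had the pattern, against 1 of the 18 here. Inside the span with any library, the share was 16.5% of all genes, against 1 of the 9. The pattern at Tet2 was noticed before its share was counted, so the share is a description. By the 6 numbers of summits in the window, 33 other genes had the same numbers as Tet2, namely 0 and 0, 1 and 2, and 1 and 1 in the conventional, bisulfite and hmC-Seal pairs. The second site in the Tet2 window, called in bisulfite replicate 2 alone, lay beyond the 3′ end of the gene from 133418379 to 133418471, with a fold of 6.28 and rank 937 of 2077.

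The related enzymes Tet1 and Tet3 had no site inside the gene and none called in more than 1 library. Tet1, on the minus strand of chromosome 10 from 62804570 to 62887469, had a site 28.3 kb upstream of its start, from 62915753 to 62915846, in hmC-Seal replicate 2. Its fold was 4.88 at rank 1795 of 11615, with an estimated pileup of 25 over a background of 4.33, so the local IgG background was high there. The start of Slc25a16 lay closer, at 4.83 kb. The other Tet1 site, from 62750118 to 62750210, lay inside Ccar1, 137.3 kb from the Tet1 start, in bisulfite replicate 2 with a fold of 6.72 at rank 1244 of 2077. Tet3, on the minus strand of chromosome 6 from 83362373 to 83457208, had 1 site from 83319555 to 83319658, inside Mthfd2 and 137.6 kb from the Tet3 start. It was called in hmC-Seal replicate 2 with a fold of 4.32, rank 5794 of 11615 and an estimated pileup of 4. Both genes were thus without a site that a second library called.

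Of the de novo methyltransferases, Dnmt3b had the strongest sites of the 9 genes. Dnmt3b lies on the plus strand of chromosome 2 from 153649411 to 153687730. The stretch from 153622637 to 153622773, 26.7 kb upstream of its start, lies inside the neighbouring gene Commd7, whose start is closer (10.1 kb). It was called in bisulfite replicate 2 with a fold of 16.5, a −log10 q of 31.2 and rank 31 of 2077, within the best 1.49% of that list. It was called in hmC-Seal replicate 1 with a fold of 15.1, a −log10 q of 27.7 and rank 301 of 3974. The 2 summits lay 2 bp apart, with estimated pileups of 32.0 and 29.1. Bisulfite replicate 1, hmC-Seal replicate 2 and both conventional libraries had no entry there, so neither modified preparation called it in both replicates.

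Bisulfite replicate 1 instead called a site further upstream, from 153614589 to 153614694, 34.8 kb before the Dnmt3b start and in no gene. Its fold was 14.3, with a −log10 q of 24.9, rank 120 of 2797 and an estimated pileup of 28.6. The 2 bisulfite replicates thus each had a high-ranked site upstream of Dnmt3b, 8.09 kb apart and at different places. By the numbers of summits in the window, 135 other genes had the same as Dnmt3b (0 and 0, 1 and 1, and 1 and 0 in the same order of libraries).

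Dnmt3a, on the plus strand of chromosome 12 from 3801559 to 3914443, had 1 site, in hmC-Seal replicate 1, from 3738938 to 3739041 inside Dtnb. It lay 62.6 kb upstream of the gene start and 68.0 kb from the nearest RefSeq start, which is that of Dnmt3a. The fold was 11.2, with a −log10 q of 15.7, rank 815 of 3974 and an estimated pileup of 19.4. The other 5 libraries had no summit in its window of 312885 bp.

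Dnmt3l, the cofactor without catalytic activity, had the other site called in both hmC-Seal libraries. It lies on the plus strand of chromosome 10 from 78042287 to 78063622, and the stretch from 78096784 to 78096907 lies downstream of it, 54.6 kb past its start and in no gene. The fold was 10.9 at rank 926 of 3974 in replicate 1 of hmC-Seal and 7.78 at rank 1432 of 11615 in the other, with −log10 q of 14.2 and 8.50. The 2 summits lay 22 bp apart, with estimated pileups of 16.2 and 8. With a pileup of at least 10 the call in hmC-Seal replicate 2 drops out here as at Tet2, which leaves 0 of the 9 genes with a stretch in both hmC-Seal libraries. No bisulfite or conventional library called it. A second site from 78143450 to 78143556, 101.2 kb past the start, was called in hmC-Seal replicate 2 alone, with a fold of 7.57, rank 1728 of 11615 and a pileup of 8.

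The maintenance genes had no site that a second library called. The window of Dnmt1, on the minus strand of chromosome 9 from 20907206 to 20959888, held no summit of any library, where even spacing gives 1.20 for hmC-Seal replicate 2 and 0.402 or fewer for each of the others. The nearest summit on the chromosome lay 276 kb from its start, in hmC-Seal replicate 2. A window without a summit was common, since 24.6% of all protein-coding genes had none.

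Uhrf1, on the plus strand of chromosome 17 from 56303337 to 56323486, had 4 sites, the most of the 9 genes together with Tdg, and each was called in hmC-Seal replicate 2 alone. Even spacing gives 0.942 summits for this window and library. The site from 56298186 to 56298273 lay 5.08 kb upstream of the Uhrf1 start, inside Arrdc5, whose start lay 2.03 kb away. Its fold was 6.50, with a −log10 q of 5.73, rank 2512 of 11615 and an estimated pileup of 7. It made Uhrf1 the 1 gene of the 9 with a summit within 10 kb of its start, against 11.8% of the 21139 protein-coding genes with a strand. The best-ranked site of Uhrf1, from 56232894 to 56232984 and 70.4 kb upstream, had a fold of 7.08, a −log10 q of 6.62, rank 2190 and a pileup of 8. The other 2 sites, inside Fem1a 41.1 kb upstream and inside Kdm4b 23.2 kb past the start, both had a fold of 3.46, a −log10 q of 1.48 and a pileup of 3, values that 2815 entries of that list share.

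Tdg, the glycosylase that removes oxidized methylcytosine, lies on the plus strand of chromosome 10 from 82629814 to 82650799 and also had 4 sites, each in 1 library. The best-ranked one, from 82671765 to 82671946 inside Glt8d2 and 42.1 kb past the start, was called in hmC-Seal replicate 2 with a fold of 6.05, a −log10 q of 5.37, rank 2659 of 11615 and a pileup of 6. The other 2 of hmC-Seal replicate 2, at 36.6 kb upstream and 24.5 kb past the start, had a fold of 3.46 and a pileup of 3. The 1 site of hmC-Seal replicate 1, from 82570682 to 82570870 and 59.1 kb upstream, had a fold of 4.55, rank 3614 of 3974 and a pileup of 8.09. No 2 of these 4 sites overlapped.

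The sites of hmC-Seal replicate 2 differed in estimated pileup from those of the other lists, which have another unit of pileup. Of its 12 entries at the 9 genes, 6 had an estimated pileup of at most 4 and 1 had at least 10, with a median of 5. The same holds for its whole list, of which 46.4% had a pileup of at most 4 and 16.7% at least 10. In hmC-Seal replicate 1, 4 of the 5 entries had at least 10, and 75.2% of its list. In the bisulfite pair it was 2 of 2 and 3 of 4 entries, and 82.8% and 73.4% of the lists. The fold of the 12 entries of hmC-Seal replicate 2 ranged from 3.46 to 7.78 with a median of 4.60, against a median of 4.32 over that list. The fold of the 5 entries of hmC-Seal replicate 1 ranged from 4.55 to 15.1 with a median of 11.2, against 6.97 over its list. The lists were not normalized to one another, so these folds describe each list alone.

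**Figure D3:**
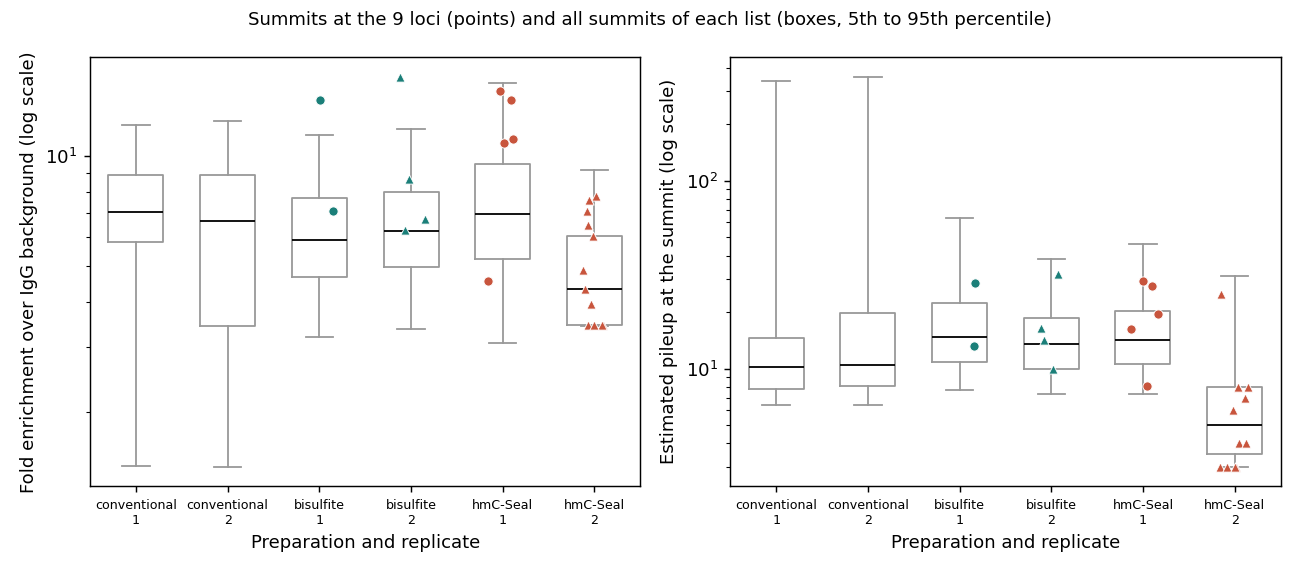
Fold enrichment over the IgG background (left, log scale) and estimated pileup (right, log scale) of the summits at the 9 genes (points) in each library, over boxes of all summits of that list (box, quartiles; line, median; whiskers, 5th to 95th percentile). The points of hmC-Seal replicate 2 lie between a fold of 3.46 and 7.78, 1 summit in each bisulfite library lies above the whisker of its list at a fold of 14.3 and 16.5, and the conventional lists have no point.

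Another 39 genes of DNA methylation, in 3 groups, were counted in the same way. A summit in the window was found for 2 and 1 of the 39 in the conventional pair, 16 and 11 in the bisulfite pair, and 18 and 29 in the hmC-Seal pair. In any library it was 33 of 39, 84.6%, beside 75.4% of all genes. By group it was 9 of 10 genes that supply, guide or maintain methylation, 8 of 9 readers of methylated or CpG-rich DNA, and 16 of 20 genes of demethylation and repair. A stretch called in both replicates was found for 7 of 39 in bisulfite libraries and 10 of 39 in hmC-Seal libraries, beside 9.62% and 10.5% of all genes, and for 0 in conventional libraries. Of the 9 readers, 0 had one in any preparation. Of the 39 genes, 8 had a summit within 10 kb of the start, beside 11.8% of all genes, and 5 inside the span, beside 16.5%.

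**Figure D4:**
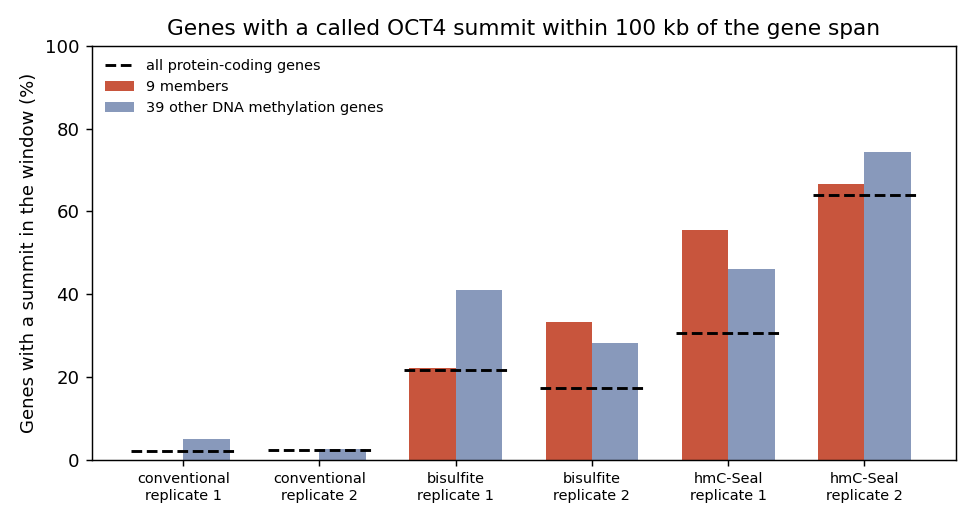
Percent of genes with a called OCT4 summit inside the gene span or within 100 kb of it (vertical axis) in each library (horizontal axis), for the 9 genes, for the other 39 DNA methylation genes and for all protein-coding genes (dashed line). The dashed line stands at 21.8% and 17.3% in the bisulfite pair and 30.6% and 64.1% in the hmC-Seal pair. The 9 genes lie within the share of 1 gene of it in bisulfite replicate 1 and hmC-Seal replicate 2, and at 0 in both conventional libraries. They lie further above it in bisulfite replicate 2 (3 of 9 genes) and hmC-Seal replicate 1 (5 of 9 genes).

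A pair of partners of the 9 genes had sites close to their start. Uhrf2, the paralog of Uhrf1, had a stretch 1.1 to 1.3 kb upstream of its start that was called in 5 of the 6 libraries. Its highest fold was 6.64 at rank 180 of 265 in conventional replicate 2, 9.11 at rank 820 of 2797 in bisulfite replicate 1 and 8.03 at rank 656 of 2077 in bisulfite replicate 2. In the hmC-Seal pair it was 12.4 at rank 716 of 3974 and 4.32 at rank 5794 of 11615. Conventional replicate 1 had no entry there. Dppa3, whose product protects methylation in the early embryo and interferes with Uhrf1, had a stretch 1.7 to 1.8 kb upstream of its start. It was called in both bisulfite libraries, with folds of 13.2 and 11.5, and in both hmC-Seal libraries, at 14.7 and 7.87, and in neither conventional library. The same stretch falls in the window of Apobec1, so the counts of genes with a stretch in both replicates hold this site more than once.

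The other genes of the list with a stretch in both replicates had it further away, except Trim28. Trim28, the corepressor that Zfp57 brings to imprinted regions, had a stretch 9.7 to 9.8 kb upstream of its start in both bisulfite and both hmC-Seal libraries, with folds from 4.95 to 8.65. Another Trim28 stretch, 87.1 kb upstream, had a fold of 2.83 and 3.33 in the bisulfite pair with estimated pileups of 98.1 and 112, so that its IgG background was high. Zfp57, which binds methylated imprinted regions, had a stretch 77.9 to 78.0 kb past its start, called in every library but conventional replicate 2. Neil1, a repair glycosylase, had a stretch 49.7 kb upstream in both bisulfite and both hmC-Seal libraries, with a fold of 20.7 at rank 102 of 3974 in hmC-Seal replicate 1. Xrcc1, a scaffold of base repair, had a stretch 39.7 kb upstream, inside Zfp428, in both hmC-Seal libraries and conventional replicate 1. Usp7, which stabilizes Dnmt1 and Uhrf1, had one 21.7 kb upstream in both hmC-Seal libraries and bisulfite replicate 2. Hells, a remodeller needed for methylation, had one 60.5 kb past its start in both hmC-Seal libraries.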

How the data were processed

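The 6 OCT4 CUT&RUN libraries of mESC were grouped by their sample titles into conventional, bisulfite and hmC-Seal, with 2 of each. The authors trimmed reads with fastp 0.19.4, aligned conventional reads with Bowtie 2 2.4.1 and the others with Bismark 0.22.3 to GRCm38, kept short fragments and the methylated reads of bisulfite libraries, and ran MACS 2 separately on every library with IgG as control, without pooling or spike-in scaling. Which IgG library served hmC-Seal is not given in the sources used here. The authors' fold is the ratio of the pileup to the background around the summit, each with a pseudocount of 1 added. The deposited −log10 p and −log10 q belong to the summit, and the deposited score was not used. The lists hold no read totals and were not normalized to one another, so ranks were taken within a list.

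The members and lists were chosen with earlier results of these data known. All entries with a summit in the gene span or within 100 kb were used, without a filter. Gene spans, starts and promoters came from RefSeq GRCm38.p6 (9 of 9 symbols found), and a missing strand from GENCODE M1 by symbol. No peak sequence was read, since the genome given was of another build. Even spacing is the summits of a chromosome times window length over chromosome length, taken as the last position in the lists or gene table, with unmappable sequence kept in. Differences between preparations were tested over libraries with two-sided exact permutation tests. Pileups were recovered with the Poisson formula of MACS 2, in units scaled to IgG except in hmC-Seal replicate 2, where they are whole fragments. Where several solutions fitted, the one at the background of the genome, then at a whole background, then the lowest was taken. In simulated lists, 100% of scaled and 98.2% of unscaled pileups came out right. The scaled simulation held only genome and whole backgrounds, so its 100% followed from that order and does not test the lowest solution. All simulated backgrounds were below the 4.33 found at Tet1. In the real lists 13.6% to 49.2% of pileups were the lowest solution, among them 28.6 at Dnmt3b, 19.4 at Dnmt3a and 25 at Tet1. In hmC-Seal replicate 2 they also include 4 at the site inside Tet2, 8 and 7 at Uhrf1 and 8 at the second Dnmt3l site. Another 0.232% to 3.40% had no solution.

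Named were all 9 genes, with full values for stretches called in at least 2 libraries, inside the gene, within 10 kb of its start or best ranked for the gene, and of the other 39 genes those with a stretch in both replicates of a preparation, except for an item that is not reported here. The study's sample list names the same pools for conventional and bisulfite libraries of 1 number. The alternatives were other windows, a stricter q, regions in place of summits, other chromosome lengths, lists of equal length, a wider minimum overlap, leaving out dense 100 kb bins or each replicate, pairing by number, and a pileup minimum, some of these for counts added after the data were seen. Computations used scipy 1.17.1, pandas 2.3.3 and numpy 2.4.6 under Python 3.11.15.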

Additional observations from a re-analysis of the deposited data

How the results depend on the processing

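With the 227 best entries of each list, the difference in mean summits was 0 for hmC-Seal minus conventional and turned to -1 for hmC-Seal minus bisulfite, the ratio to even spacing was 4.05 for bisulfite and 0 for hmC-Seal, and genes with a stretch in both replicates numbered 0 for bisulfite and 0 for hmC-Seal; the 2 bisulfite summits left are those upstream of Dnmt3b. With a pileup of at least 10, hmC-Seal minus bisulfite was 0, genes with a stretch in both hmC-Seal replicates 0, genes with a summit 5 and stretches 7. The ratio for hmC-Seal was 1.23, 1.56 and 1.15 in windows of 10, 50 and 250 kb. For bisulfite it was higher than the main 1.33 in each of these windows, at 1.47, 1.81 and 1.74. No intervals were computed for these windows, so whether they include 1 was not tested. Genes with a stretch in both bisulfite replicates numbered 3 in windows of 250 kb, and in both hmC-Seal replicates 1 in windows of 10 kb and 1 at a −log10 q of at least 3. Leaving out each replicate gave differences of 5 to 12 for hmC-Seal minus conventional, 2 to 4 for bisulfite minus conventional and 2 to 9 for hmC-Seal minus bisulfite, and ratios of 0.776 to 2.07 for bisulfite and 1.19 to 1.40 for hmC-Seal. Without hmC-Seal replicate 2, stretches numbered 8, those in at least 2 libraries 2 and genes with a summit 6. The cause of these shifts was not tested beyond what the settings remove.

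Paired by replicate number, as a block, the differences were 8.5, 3 and 5.5, unchanged in size, with an exact sign-flip p of 0.5, the smallest that 2 pairs allow. Counts of at most 12 summits per library, gene spans without exons, and unmapped stretches in the even-spacing number limit what these data show at single genes. A gene without a called site may still be bound below the depth of the lists.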
